A study of Mus musculus with 6 samples.

Results

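Pthlh and Pth1r encode a secreted peptide, parathyroid hormone-related protein (PTHrP), and the receptor through which it acts. They are 2 of the 19618 genes in the deposited table and were taken from it by gene symbol. Pthlh was chosen by its measured difference between the knockout and control libraries described here, so its values, and those of Pth1r, Gli1, Gli2 and Ptch1, are given as a description with no test. The libraries came from tail skin keratinocytes, the main cells of the epidermis, of mice aged 4 months, taken as epidermis scraped from the dermis after digestion. All 6 mice carried a floxed allele of Gpr161, a receptor of the primary cilium known to restrain Hedgehog signalling. The 3 knockout mice had both alleles floxed (Gpr161Flox-Homozygous) and K14cre, a transgene in which the promoter of keratin 14, active in basal keratinocytes, drives Cre recombinase. No K14cre is listed for the 3 control mice; 1 of them was Gpr161Flox-Homozygous and the others Gpr161Flox-Heterozygous. The deposited columns name a group and a tag but no mouse, so the libraries are called DE679, DE685 and DE688 (knockout) and DE680, DE684 and DE689 (control), and the homozygous control is not singled out. They held 17157864 to 25344399 counts each. Group means below are given ± SD over the 3 libraries of a group.

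PTHrP is made by keratinocytes and by many other epithelia and acts mostly on nearby cells. Its receptor is a G protein-coupled receptor shared with parathyroid hormone, and it signals through Gs and cyclic AMP and through Gq and phospholipase C. In skin the receptor is known mainly from dermal fibroblasts, and the ligand has been linked to hair follicle growth and keratinocyte differentiation. In the growth plate of bone, Hedgehog signalling and PTHrP form a feedback loop, and GLI2, a transcription factor of the Hedgehog pathway, is known to raise PTHLH transcription in tumour cells.

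Pthlh (chromosome 6, 147252101 to 147264183, minus strand, GRCm38) has 2 annotated transcripts in GENCODE M21, and no other annotated gene overlaps it. RefSeq places 1 promoter for Pthlh, from 250 bases before to 50 bases after the start, at chr6:147263964-147264263. Of its bases 74.0% are G or C, a share above that of 95.2% of the 32851 promoters in the table (median 52.7%). The stretch upstream of every annotated start, chr6:147264184-147264263 on the minus strand, is shown because Pthlh is set beside Hedgehog target genes below, and capitals mark its GC box, the motif that factors of the Sp family bind.

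Pthlh promoter: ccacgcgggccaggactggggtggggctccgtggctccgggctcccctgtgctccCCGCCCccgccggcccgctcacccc

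The GC box was searched as GGGCGG on both strands, and the whole Pthlh promoter held it 4 times, starting at −195, −45, −26 and −8 relative to the RefSeq start. Of all promoters of the same length, 35.7% held at least 1. The consensus of the GLI factors, searched as GACCACCCA on both strands, had no match in the Pthlh promoter, in the 3 Pth1r promoters or in those listed for Gli2 and Ptch1. It was found in 0.253% of all promoters. With 1 base allowed to differ, 6.74% of all promoters matched and these genes still had no match. The cyclic AMP response element, searched as TGACGTCA, was absent from the same promoters and present in 1.79% of all. Gli1 has no entry in the promoter table.

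Pthlh was higher in the knockout libraries than in the control libraries. Levels are in CPM, counts scaled to a common library size with factors from the trimmed mean of M values (TMM). Knockout library DE679 had 25.1 CPM (591 counts), DE685 had 28.7 CPM (496 counts) and DE688 had 31.2 CPM (801 counts). Control library DE680 had 8.74 CPM (197 counts), DE684 had 6.76 CPM (154 counts) and DE689 had 7.54 CPM (190 counts). The groups did not overlap, and the lowest knockout library stood 2.87-fold above the highest control library. Knockout libraries averaged 28.3 ± 3.06 CPM and control libraries 7.68 ± 0.999 CPM (SD, n = 3), a ratio of 3.68. The fitted log2 difference was 1.88 (SE 0.13). Spread within the groups was small beside this difference, with the highest library 1.24-fold above the lowest in the knockout and 1.29-fold in the control.

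Each group held 1 library with counts of Y-linked genes, DE685 and DE684. Between these the Pthlh ratio was 4.24, and between the means of the other libraries, 2 in each group, it was 3.45. Of all 15422 genes tested, 1.6% were called different, 1.24% as higher and 0.357% as lower in the knockout. A call is an adjusted p under 0.05 in edgeR's quasi-likelihood test with Benjamini-Hochberg adjustment. In 12.8% of the genes every knockout library lay above every control library. Since this contrast chose Pthlh, nothing is read from its place among them. With bulk RNA, more cells of a type that makes Pthlh and more Pthlh RNA per cell cannot be told apart.

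**Figure D1:**
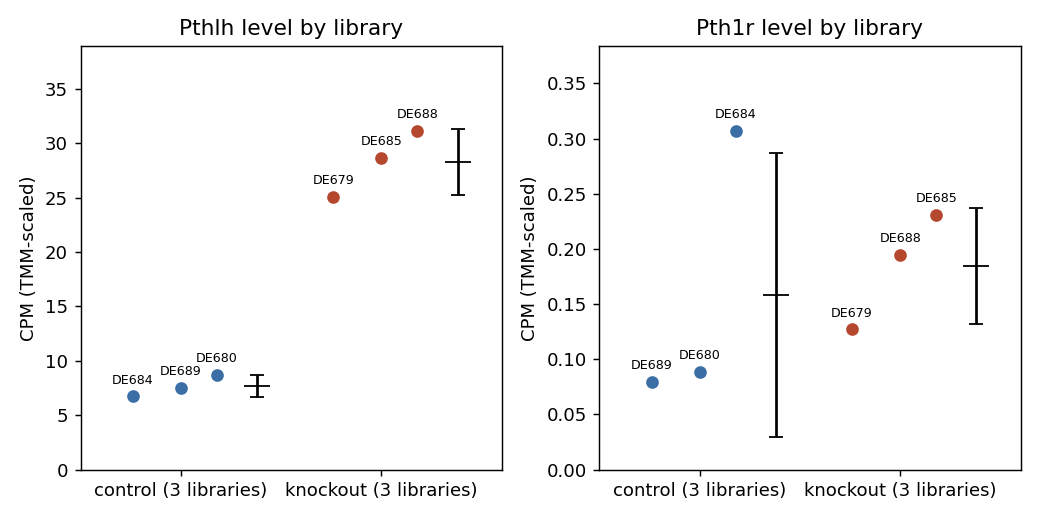
Levels of Pthlh (left) and Pth1r (right) in CPM in each library, with a bar for the mean and SD of the 3 libraries beside each group. Pthlh lies between 25.1 and 31.2 CPM in the knockout and between 6.76 and 8.74 CPM in the control, whereas the Pth1r axis ends far lower and its groups overlap.

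Pth1r (chromosome 9, 110722085 to 110747145, minus strand) was barely detected in any library. Knockout library DE679 had 3 counts, DE685 had 4 and DE688 had 5. Control libraries DE680 and DE689 had 2 counts each and DE684 had 7. These were 0.127, 0.231 and 0.194 CPM in the knockout and 0.0887, 0.307 and 0.0793 CPM in the control. The groups overlapped, with both the highest and the lowest value in control libraries. Summed over the groups there were 12 counts in the knockout and 11 in the control, a ratio per total count of 1.20 with an exact 95% interval of 0.483 to 2.99 that covers counting error only. A difference within that interval cannot be told from none, and the interval sets no limit of detection. Pth1r did not pass the filter on low counts and was not among the genes tested. Without that filter, Pth1r had a fitted log2 difference of 0.20, with an SE of 0.74 that takes in the spread between libraries. Its annotation shares 95 exon bases with Myl3 on the opposite strand, and use of the strand in counting is not given in the sources used here, so even these counts are uncertain.

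Per kilobase of exon, the ligand stood far above its receptor. Pthlh averaged 17.5 ± 1.89 CPM per kb in knockout libraries and 4.74 ± 0.617 in controls, over 1619 exon bases. Pth1r had 0.0630 ± 0.0180 and 0.0541 ± 0.0441 CPM per kb over 2925 exon bases. On the same scale Gli1 had 13.9 ± 0.884 in the knockout and 1.83 ± 0.172 in the control. Gli2 had 7.09 ± 0.837 and 2.05 ± 0.414 CPM per kb, and Ptch1 had 7.84 ± 0.988 and 2.62 ± 0.377. Lengths are those of all annotated exons joined, 1619 bases for Pthlh and 14185 for Ptch1, so the order depends on that choice. On this scale, in the control, Pthlh had the highest level per length of these 5 genes. Gli1, Gli2 and Ptch1 followed with ranges of 1.65 to 2.85 CPM per kb, and Pth1r was last. Gli1 and Gli2 overlapped there, as did Gli2 and Ptch1, while Gli1 and Ptch1 did not. In the knockout, Pthlh at 15.5 to 19.2 CPM per kb lay above Gli1 at 13.4 to 14.9, and Gli2 and Ptch1 overlapped.

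Gli1, Gli2 and Ptch1 were set beside Pthlh in every library. Gli1 is a transcription factor and a direct target of Hedgehog signalling, Gli2 is its main activating transcription factor, and Ptch1 is the Hedgehog receptor, itself a target. Libraries are taken in the order DE679, DE685, DE688 for the knockout and DE680, DE684, DE689 for the control. Gli1 had 66.7, 67.1 and 74.5 CPM against 9.23, 9.96 and 8.25 CPM. Gli2 had 42.9, 54.4 and 48.8 CPM against 12.8, 17.3 and 12.1 CPM. Ptch1 had 95.4, 115.8 and 122.3 CPM against 31.0, 40.4 and 40.1 CPM. As for Pthlh, the groups did not overlap for any of the 3 genes. The log2 differences were 2.93 (SE 0.10) for Gli1, 1.79 (SE 0.15) for Gli2 and 1.58 (SE 0.13) for Ptch1, beside 1.88 for Pthlh. Gli1 shares 62 exon bases with Arhgap9 and 265 with Gm47200, both on the opposite strand, so its counts are uncertain to that extent.

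Across the 6 libraries these genes form separate clusters, the 2 genotypes, with 3 libraries in each. No pooled correlation is given for that reason, and the relation within a genotype, with 3 libraries each, was not tested. Within the knockout, Pthlh, Gli1 and Ptch1 had the same order, lowest in DE679, then DE685, then DE688. For Gli1, DE679 and DE685 were close, at 66.7 and 67.1 CPM. Gli2 was also lowest in DE679 but highest in DE685. Within the control, Pthlh did not share an order with any of the 3. DE684 was the lowest control library for Pthlh and the highest for Gli1, Gli2 and Ptch1.

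The ratio of Pthlh to Ptch1, taken in CPM within a library, ran from 0.247 to 0.263 in the knockout and from 0.167 to 0.282 in the control, so the groups overlapped. The ratio of Pthlh to Gli2 also overlapped, with 0.526 to 0.639 in the knockout and 0.390 to 0.684 in the control. The ratio of Pthlh to Gli1 did not: it was 0.376 to 0.427 in the knockout and 0.678 to 0.947 in the control. These ratios rest on 3 libraries a group and were not tested.

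**Figure D2:**
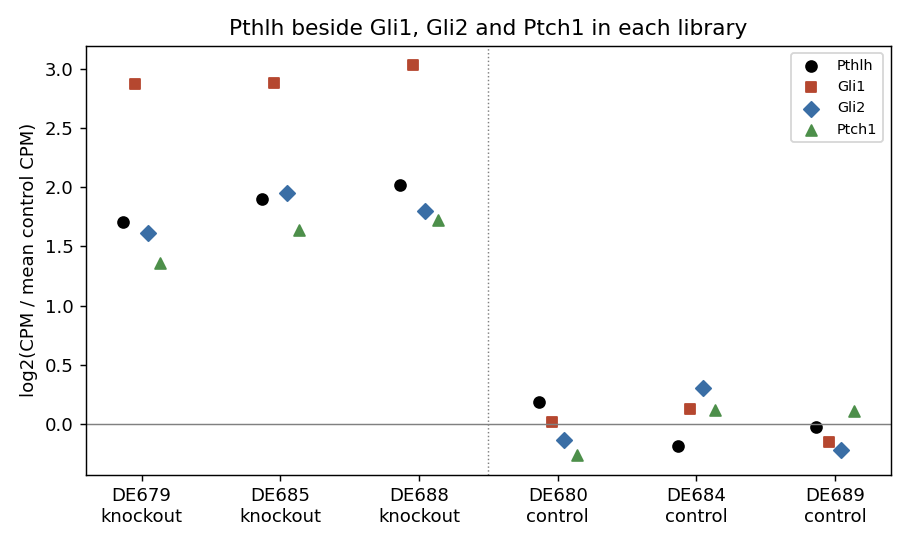
For each library, log2 of the CPM of Pthlh, Gli1, Gli2 and Ptch1 over the mean of the control libraries for the same gene. In the knockout libraries Pthlh lies with Gli2 and Ptch1 and below Gli1, and in the control library DE684 it lies below all 3.

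The genes with the level profile most like that of Pthlh were Gm32219, Cyp27a1, Synpo, Wnt7b and Steap4. Likeness was the root mean square difference between log2(CPM + 1) profiles over the 6 libraries, each centred on its own mean, among 13678 other genes with a mean of at least 1 CPM. Gm32219, a long intergenic RNA on chromosome 12, was nearest, with a root mean square difference of 0.0758. Its level averaged 22.1 ± 2.42 CPM in knockout libraries and 6.46 ± 0.792 in controls. Cyp27a1, a mitochondrial sterol hydroxylase, followed at 0.138, and Synpo, an actin-binding protein, at 0.143. Wnt7b, a Wnt ligand of the epidermis, stood at 0.181 and Steap4, a metalloreductase, at 0.200. Wnt7b shares 324 exon bases with AU022754 on the opposite strand. Choosing by profile fixes their direction, so no test is given for them. With a pseudocount of 0.1 in place of 1, Gm32219, Cyp27a1 and Synpo were again among the 5 nearest. For Pth1r the same rule returned Mgst3, Ppa2, Ttyh3, Ercc6l and Cad, which are genes with nearly level profiles. None of these was found with a pseudocount of 0.1, and with 2 to 7 counts a library the profile of Pth1r is no finding.

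The genes beside Pthlh on chromosome 6 did not differ between the genotypes in the test. Of the 3 protein-coding genes on each side, 5 were tested and 0 were called (edgeR). At an unadjusted p under 0.05 none of these passed, and none was called by DESeq2 or limma. Mrps35, a mitochondrial ribosomal protein gene, averaged 24.5 ± 0.664 CPM in knockout libraries and 25.8 ± 0.435 in controls, with a log2 difference of −0.08 (SE 0.07, edgeR adjusted p 0.591). Ccdc91, the nearest tested gene on the far side at 211.6 kb, had the largest difference of the 5, 0.29 (SE 0.13, edgeR adjusted p 0.279). Klhl42, at 139.3 kb, differed by 0.21 (SE 0.11, edgeR adjusted p 0.347). Far2 and Ergic2, farther along the chromosome, had differences of 0.04 and −0.04.

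On one side of Pth1r on chromosome 9, Nradd, Nbeal2 and Ccdc12 were tested and 0 were called (edgeR, DESeq2 and limma). Of these, Nradd and Nbeal2 had an unadjusted p under 0.05 in edgeR. Nradd differed by 0.31 (SE 0.09, edgeR adjusted p 0.125) and Nbeal2 by −0.19 (SE 0.08, edgeR adjusted p 0.236). Ccdc12, the nearest of these at 10.5 kb, had 31.9 ± 0.700 CPM in knockout libraries and 33.7 ± 3.20 in controls. The genes on the other side, Myl3, which overlaps Pth1r, Prss42 and Prss44, were not analysed here. No reading of the low Pth1r counts is drawn from these neighbours.

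**Figure D3:**
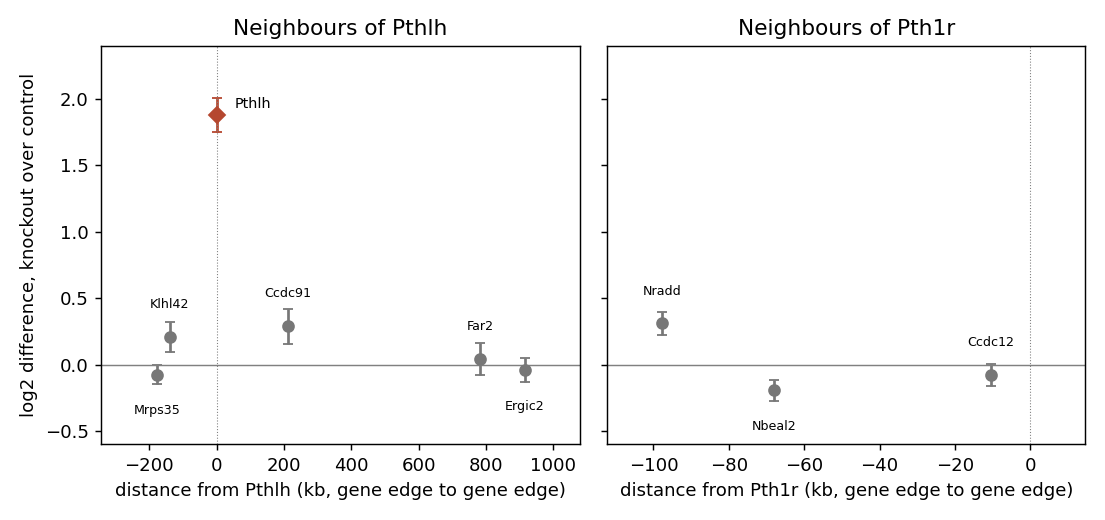
Fitted log2 difference, knockout over control, with its SE, of Pthlh (diamond) and of the tested protein-coding neighbours of Pthlh (left) and Pth1r (right), against the distance between gene edges in kb. Pthlh stands at 1.88 and its 5 neighbours between −0.08 and 0.29; Pth1r itself has no fit.

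Of the other ligands and receptors listed for the family, 1 was tested and 0 were called. Calcrl, a related receptor that responds to adrenomedullin and calcitonin gene-related peptide, averaged 2.35 ± 0.655 CPM in knockout libraries and 2.12 ± 0.605 in controls. Its log2 difference was 0.14 (SE 0.32, edgeR adjusted p 0.846). The other listed genes, Pth, Pth2, Pth2r and Calcr, were not analysed here. Ihh, the Hedgehog ligand of the growth plate loop, had 6 counts over the knockout libraries and 5 over the control libraries and was not tested.

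Of 6 tested genes that process the PTHrP precursor, degrade peptides or carry PTHrP into the nucleus, 0 were called by edgeR, DESeq2 or limma. Furin, the protease that cleaves many propeptides, averaged 210.9 ± 14.4 CPM in knockout libraries and 200.7 ± 13.3 in controls, a log2 difference of 0.07 (SE 0.07, edgeR adjusted p 0.638). Kpnb1, the importin beta subunit that binds PTHrP, differed by −0.07 (SE 0.05, edgeR adjusted p 0.488), with every knockout library below every control library. In edgeR 1 of the 6 had an unadjusted p under 0.05, a threshold that 19% of all genes tested passed, 9.9% as higher and 9.1% as lower. That gene was Mme, a membrane endopeptidase that degrades peptides, with 1.68 ± 0.347 against 0.838 ± 0.313 CPM (log2 difference 1.01, SE 0.35, edgeR adjusted p 0.185).

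Among 12 regulators of the receptor, such as arrestins, receptor kinases and receptor activity-modifying proteins, 0 were called by edgeR, DESeq2 or limma and 3 had an unadjusted p under 0.05 in edgeR, 2 higher and 1 lower. Of all genes tested 19% passed that threshold. Grk2, a kinase that marks active receptors for arrestin, averaged 119.0 ± 5.38 CPM in knockout libraries and 136.6 ± 10.5 in controls (log2 difference −0.20, SE 0.07, edgeR adjusted p 0.199). Vps35, of the retromer that recycles receptors, differed by −0.08 (SE 0.06, edgeR adjusted p 0.523). Ramp3, a receptor activity-modifying protein, had 1.27 ± 0.156 and 0.685 ± 0.122 CPM (log2 difference 0.90, SE 0.30, edgeR adjusted p 0.170).

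Neither signalling arm of the receptor held a gene called by edgeR. In the Gs and cyclic AMP arm 16 genes were tested, and 6 had an unadjusted p under 0.05, 4 of them higher and 2 lower. Of all genes tested 19% passed that threshold. The 4 higher, with log2 differences, were Pde4a (1.26, SE 0.37), Prkar1b (0.79, SE 0.27), Adcy3 (0.22, SE 0.09) and Creb1 (0.15, SE 0.06). The 2 lower were Pde4b (−0.32, SE 0.09) and Prkar2a (−0.27, SE 0.08). Gnas, which encodes the stimulatory G protein subunit, had 245.5 to 257.2 CPM in knockout libraries and 238.4 to 265.5 in controls, a log2 difference of −0.02 (SE 0.06, edgeR adjusted p 0.893). Prkar1a, a regulatory subunit of protein kinase A, also differed by −0.02 (SE 0.06, edgeR adjusted p 0.877). In the Gq and phospholipase C arm 11 genes were tested, and 5 had an unadjusted p under 0.05, 4 of them higher and 1 lower. DESeq2 called 2 genes of this arm higher, Itpr2 and Itpr3, and 565 of all 15422 genes tested. Itpr3, a calcium release channel of the endoplasmic reticulum, had 700.5 ± 26.4 against 604.8 ± 32.3 CPM (log2 difference 0.21, SE 0.06, edgeR adjusted p 0.148). Plcb3, a phospholipase C, differed by 0.17 (SE 0.08, edgeR adjusted p 0.288).

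Of 26 tested mediators and response genes of parathyroid hormone and PTHrP signalling, known mostly from bone and cartilage, 1 was called, Runx2, and 6 had an unadjusted p under 0.05, 5 of them higher and 1 lower. Of all genes tested 1.6% were called and 19% passed the unadjusted threshold. Runx2, a transcription factor of bone that is also expressed in hair follicles, had 6.95, 8.49 and 11.4 CPM in the knockout libraries and 3.55, 3.47 and 3.85 CPM in the control libraries, in the order above. The groups did not overlap. The log2 difference was 1.30 (SE 0.21, edgeR adjusted p 0.0292). The call was lost in 5 of the 6 fits that left out 1 library and kept without DE679, with log2 differences from 1.09 to 1.46. Runx2 shares 519 exon bases with Runx2os1 on the opposite strand, so its counts are uncertain to that extent. Lef1, a partner of beta-catenin, had 8.93 ± 3.00 against 3.41 ± 1.45 CPM (log2 difference 1.39, SE 0.35, edgeR adjusted p 0.105) and was called by DESeq2.

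Of 20 tested genes reported to regulate Pthlh transcription, 0 were called by edgeR or limma and 8 had an unadjusted p under 0.05, 5 higher and 3 lower. Of all genes tested 19% passed that unadjusted threshold. DESeq2 called 4 of the 20 higher, Tgfb1, Tgfb2, Tgfb3 and Vdr, and 565 of all 15422 genes tested. Vdr, the vitamin D receptor, which is known to repress Pthlh, had 287.7 to 348.4 CPM in knockout libraries and 233.0 to 274.9 in controls (log2 difference 0.37, SE 0.10, edgeR adjusted p 0.105). Its partner Rxra differed by 0.15 (SE 0.08, edgeR adjusted p 0.332). The transforming growth factor beta ligands, known inducers of Pthlh, had log2 differences of 0.41 for Tgfb1 (SE 0.11), 0.58 for Tgfb2 (SE 0.16) and 0.84 for Tgfb3 (SE 0.22), with edgeR adjusted p of 0.129, 0.131 and 0.107. The 3 lower genes were Tgfbr1 and Smad2, of the same pathway, and Ereg. Their log2 differences were −0.21 (SE 0.08), −0.23 (SE 0.07) and −0.84 (SE 0.29), with edgeR adjusted p of 0.224, 0.153 and 0.184.

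Together these 7 lists of ligand processing, receptors, signalling, responses and regulators held 92 tested genes, of which 1, or 1.09%, was called, against 1.6% of all genes tested. Their median log2 difference was 0.08, against −0.0036 over all genes tested, and 55 of the 92 lay above 0. In 33 of them, or 35.9%, the groups did not overlap, against 25.6% of all genes tested. The knockout was higher in 24, or 26.1% of the 92, against 12.8% of all genes tested, and lower in 9. At an unadjusted p under 0.05 in edgeR 29 of the 92 passed, 21 higher and 8 lower. Of all genes tested 19% passed that threshold, 9.9% as higher and 9.1% as lower. The lists were chosen with earlier results of these data known, so these shares are no independent evidence. DESeq2 called 8 of the 92 genes, all higher, and over all 15422 genes tested it called 565 higher and 307 lower. The edgeR share of 1.6% is therefore not the background for its count. In edgeR, fits without 1 library called 0 to 2: 2 without DE679, Runx2 and Tgfb3, and 0 without any other.

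Apart from Gli1, Gli2 and Ptch1, the Hedgehog list held 7 tested genes, of which 3 were called higher and 0 lower by edgeR, DESeq2 and limma-voom. Of these 7, 4 were higher at an unadjusted p under 0.05 and 0 lower, and the median log2 difference was 0.22. The list was written with its results known, so its direction is no independent evidence. The called genes included Kif7, a kinesin of the cilium tip, and Smo, the signal transducer of the pathway. Kif7 and Smo, named after their values were seen, differed by 0.69 (SE 0.11, edgeR adjusted p 0.0302) and 0.43 (SE 0.05, edgeR adjusted p 0.00883). Smo lost its call without DE688 only, and Kif7 lost it in each of the 6 fits. Of the 7 genes, fits without 1 library called 0 to 2: 0 without DE688, 2 without DE679 and 1 without each of the others. Shh, the Hedgehog ligand of the hair follicle, had 2, 1 and 4 counts in the knockout libraries and 15, 7 and 13 in the control libraries, so the groups did not overlap, but it did not pass the filter and was not tested. Kif7 shares exon bases with Ticrr and 9330171B17Rik on the opposite strand. Gpr161 itself, the targeted gene, had 28.8 ± 4.23 and 31.4 ± 1.10 CPM (log2 difference −0.13, SE 0.11, edgeR adjusted p 0.553), so its whole-gene count does not check the labels.

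**Figure D4:**
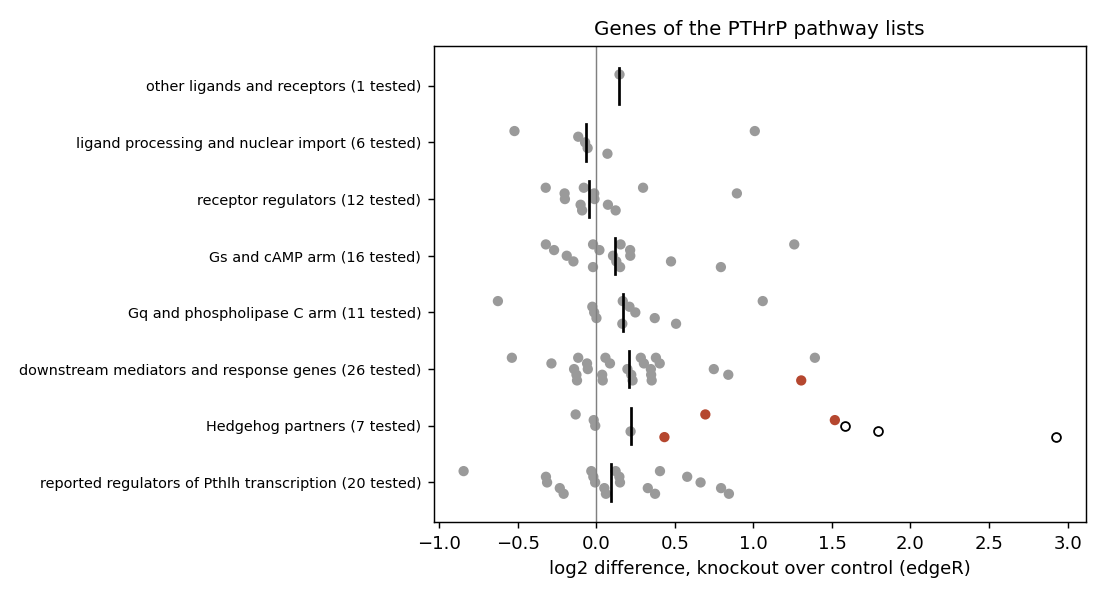
Fitted log2 difference, knockout over control, of each tested gene (point) of 8 lists around PTHrP signalling, with the list median as a black bar and genes called by edgeR in red. Gli1, Gli2 and Ptch1 are drawn as open circles and left out of the median and the number tested; the called genes are Runx2 and 3 Hedgehog genes, and the list medians run from −0.06 to 0.22.

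The libraries carried keratinocyte RNA at high levels. Krt14, the basal keratin whose promoter drives the transgene, had 9552 to 11470 CPM in knockout libraries and 8847 to 11102 in controls, a log2 difference of 0.03 (SE 0.11, edgeR adjusted p 0.911). None of the 5 keratinocyte markers was called by edgeR, 1 had an unadjusted p under 0.05, and DESeq2 called 1, Trp63. Of 9 hair follicle markers tested, 1 was called, Plet1, a marker of the upper follicle. In edgeR 7 of the 9 were higher at an unadjusted p under 0.05, as were 9.9% of all genes tested. The median log2 difference was 0.50, and 1 marker, Cd34, lay below 0 at −0.29 (SE 0.22, edgeR adjusted p 0.504). Plet1 had 110.2 ± 0.468 against 62.3 ± 2.21 CPM (log2 difference 0.82, SE 0.05, edgeR adjusted p 0.00137) and was called in each of the 6 fits without 1 library. It shares 261 exon bases with Plet1os on the opposite strand. The summed level of the list was 4348 to 4919 CPM in the knockout and 3307 to 3894 in the control, so the groups did not overlap. Most of that sum came from 2 keratins. Krt79 had 2174 ± 132 against 1848 ± 247 CPM, with overlapping groups, and Krt15 had 1881 ± 171 against 1443 ± 142 CPM, without overlap. DESeq2 called 7 of the 9, among them Lgr6 and Sox9, with log2 differences of 1.49 (SE 0.29) and 0.50 (SE 0.10) in edgeR. Over all 15422 genes tested, DESeq2 called 565 higher. The part of the follicle markers in the Pthlh difference was not tested.

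Osteoblasts, chondrocytes and fibroblasts are cell types known to carry Pth1r. Of 6 markers listed for osteoblasts and chondrocytes, 2 were measured, Acan and Col2a1, and neither passed the filter; Bglap, Sp7, Ibsp and Dmp1 were not analysed here. The summed level of Acan and Col2a1 was 0.173 to 0.350 CPM in the knockout and 0.177 to 0.263 in the control. Of 8 fibroblast markers 6 were tested, with a median log2 difference of −0.17, and 1 was called, Dcn, a proteoglycan of connective tissue. Their summed level was 190.0 to 224.7 CPM in the knockout libraries and 102.6 to 122.3 in the controls, and its part in the Pthlh difference was not tested. Dcn had 119.0 ± 6.19 against 31.9 ± 10.1 CPM (log2 difference 1.90, SE 0.21, edgeR adjusted p 0.00782). Col6a1, the next most abundant of the list, had 76.3 ± 13.9 against 58.9 ± 14.7 CPM (log2 difference 0.37, SE 0.20, edgeR adjusted p 0.350) and was called higher with a sex term. The fibrillar collagens were not called: Col1a1 had 5.40 ± 0.932 and 7.06 ± 4.81 CPM and Col3a1 4.18 ± 0.299 and 6.07 ± 3.52 CPM. Pdgfra, a receptor that marks fibroblasts, had 1.11 ± 0.266 and 1.09 ± 0.628 CPM. The control library DE684, with the most Pth1r counts, also had the highest Col1a1, Col1a2, Col3a1, Pdgfra and Pdgfrb of the 6 libraries. Col6a1 was lowest there, at 42.2 CPM, and Dcn and Lum were highest in the knockout library DE688. The part of fibroblast RNA in the Pth1r counts was not tested. With DE684 left out, the log2 differences were 0.33 for Col1a1 and 0.012 for Col3a1, neither called. Without DE684 the log2 ratio of the Pth1r group means was 1.13, against 0.22 with all libraries, from the same few counts.

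The remaining lists held 1 call. Cspg4, listed for pericytes and also known from basal keratinocytes, differed by 0.51 (SE 0.09, edgeR adjusted p 0.0427), and the call was lost in each of the 6 fits without 1 library. Summed levels of the list were 145.1 to 180.8 CPM in the knockout libraries and 103.5 to 121.7 in the controls. Nearly all of that was Cspg4 itself, with 143.8 to 176.4 and 101.5 to 119.8 CPM. The summed endothelial level went the other way, 1.96 to 3.31 CPM in the knockout libraries and 3.49 to 6.41 in the controls. The endothelial, melanocyte, Schwann cell, Merkel cell, immune cell, skeletal muscle and adipocyte lists had 0 genes called by edgeR, and DESeq2 called 1 melanocyte gene, Pmel. At an unadjusted p under 0.05 edgeR had 2 melanocyte genes, higher, and 1 endothelial gene, lower. In all, 3 of 44 tested markers were called, or 6.82%, against 1.6% of all genes tested. The marker lists were chosen with earlier results of these data known, so this share is no independent evidence.

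**Figure D5:**
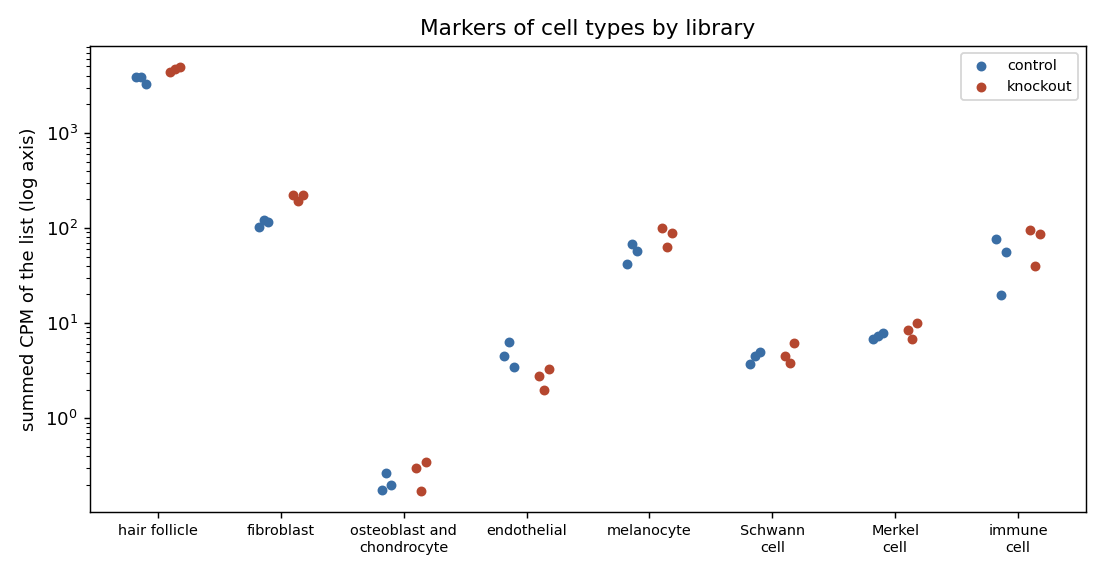
Summed CPM (log axis) of the markers of 8 cell types, with a point for each control library (blue) and knockout library (red). Hair follicle and fibroblast sums are higher in every knockout library, the former mostly Krt79 and Krt15 and the latter with Dcn alone called. The osteoblast and chondrocyte sum stays at or below 0.350 CPM.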

How the data were processed

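RNA from 6 libraries was made with a stranded poly(A) kit per the labels. Per the submitters' processing notes, bcl2fastq 2.20, cutadapt 1.18, STAR 2.7.0f and Partek were used with mm10; the annotation, counting tool and use of strand are not given in the sources used here. The authors deposited estimated counts per gene (17157864 to 25344399 per library, 53.5% to 58.3% of values whole) and a normalized signal, which equals the deposited count times a constant for each library plus 0.001. File coordinates matched GENCODE M21 (GRCm38) for 98.8% of shared symbols.

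Estimated counts were rounded; the design had been laid out for counts. After filterByExpr and TMM scaling (factors 0.976 to 1.03) in edgeR 4.0.16, all 6 libraries entered glmQLFit and glmQLFTest with genotype as the term, and p-values were adjusted over the 15422 genes tested. An adjusted p under 0.05 is called. Standard errors came from the F statistic. The fit was tested on simulated data. Alternatives used DESeq2 1.42.0, limma 3.58.1, other factors and filters, a sex term read from Y-linked genes, and each library left out. Floors and intervals cover counting error only. No label says how the mice relate, so p-values measure the spread between these libraries; 3 against 3 cannot go below 0.1 in an exact permutation test.

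Members, lists and tests were chosen with earlier results of these data known. Named were the members, Gli1, Gli2 and Ptch1, up to 4 called genes of each pathway list (or else its 2 most abundant), called markers, the 5 nearest profiles and 3 protein-coding neighbours on each side. Other genes given with values, among them Mme, Ramp3, Lef1, Tgfb1 to Tgfb3, Lgr6, Sox9, Cd34, Col6a1, Col1a1, Col3a1, Pdgfra, Krt14, Itpr2, Pmel and Ihh, were chosen after their values were seen. Neighbours and list genes without a row or below the filter were not tested. No protein sequences were used here. The values of 1 called gene of the Hedgehog list are not reported here.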

Additional observations from a re-analysis of the deposited data

How the results depend on the processing

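The Pthlh difference kept its direction in every alternative run, with log2 differences from 1.75 to 1.90 over the other tools, factors, filters and the sex term, and from 1.80 to 1.98 without 1 library. For Pth1r the log2 ratio of means ranged from −0.10 to 1.13 without 1 library, the highest without DE684. Other factors, the authors' normalized values and an edgeR fit with no filter (SE 0.74) gave 0.20 to 0.23, and the other tools, the filter at 1 CPM and the sex term gave no value, since the filter removed it.

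Over all genes, 192 were called higher and 55 lower. DESeq2 called 565 and 307, a sex term gave 299 and 110 (the causes were not tested), and fits without 1 library gave 65 to 109 and 3 to 19, which rest on fewer libraries. Of the pathway genes 7 were called higher, with 14 in DESeq2 and 3 to 7 without 1 library; leaving out Gli1, Gli2 and Ptch1, whose values were known in the choice of genes, these counts were 4, 11 and 0 to 4 (0 without DE688). Of the markers 3 were called higher, with 11 in DESeq2, 7 with a sex term and 2 to 3 without 1 library. None of either set was called lower in these fits. At an unadjusted p under 0.05, with Gli1, Gli2 and Ptch1 left out, edgeR had 25 higher and 8 lower pathway genes. Of the 44 tested markers 12 were higher and 1 lower at that threshold, which 9.9% of all genes tested passed as higher and 9.1% as lower.

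Single genes near 0 changed sign, and none was called where it did. Ercc6l and Cad reversed with upper-quartile factors (0.0070 and 0.0077). Without 1 library the log2 difference ranged from −0.68 to 0.33 for Col1a1, −0.86 to 0.012 for Col3a1 and −0.26 to 0.59 for Pdgfra. It ranged from −0.061 to 0.093 for Krt14, −0.066 to 0.35 for Calcrl, −0.060 to 0.014 for Gnas and −0.054 to 0.0096 for Prkar1a. It ranged from −0.040 to 0.098 for Mgst3, −0.023 to 0.13 for Ppa2, −0.037 to 0.15 for Ttyh3, −0.074 to 0.10 for Ercc6l and −0.058 to 0.089 for Cad. For Far2 it was −0.10 to 0.16 and for Ergic2 −0.13 to 0.0021. No paired analysis was possible because the columns carry no replicate numbers. Depth limits Pth1r: 3 counts are 0.117 to 0.173 CPM.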
